A study of Mus musculus with 8 samples.

Results

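Expression was described in 4 arrays of intestinal organoids at day 7, out of the 8 arrays of the series, across 19057 genes that have a probe with 1 gene symbol. They were chosen by their titles, which name the day and replicates 1 to 4, and each gene was read from its probe with the highest mean over these 4 arrays. All cultures came from C57Bl mice aged 2 to 3 months with the alleles Lgr5-EGFP-IRES-CreER and Apcflox/flox. Tamoxifen was given for 2 days, R-Spondin1 was then left out for 5 days, and RNA was taken at day 7. The recombinase is driven by the stem cell gene Lgr5, so deletion starts in stem cells, and withdrawal of R-Spondin1 selects for cells that grow without it. No culture without the deletion was among the samples, so no value below shows an effect of losing Apc. Whether the 4 samples are separate cultures or animals is not stated, so the spread given here may be technical, biological or both.

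An intestinal organoid is an epithelial culture that grows from a crypt in a gel of matrix. Its stem cells divide and give rise to absorptive enterocytes, which carry the digestive enzymes and transporters of the brush border, and to secretory cells. The secretory lineages are Paneth cells (antimicrobial peptides), goblet cells (mucus), enteroendocrine cells (hormones) and tuft cells (chemosensory). Apc is part of the complex that marks beta-catenin for destruction, and R-spondins keep Wnt receptors at the cell surface, so cells without Apc carry on Wnt target expression when R-spondin is absent. In bulk RNA, fewer cells of a lineage and less RNA per cell cannot be told apart.

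Values are normalized log2 intensities, and the arrays share nearly the same distribution, with a lowest value of 6.45, a median of 6.81 and a highest value of 15.43 on each. A background limit of 6.796 was set from the dimmest values. Between 12384 and 12550 genes lay above it on each array. On all 4 arrays it was exceeded by 10251 genes (53.8% of 19057), on 1 to 3 arrays by 4900, and on none by 3906. The mean reached 8 for 5754 genes, 10 for 2369, 12 for 560 and 14 for 64. Brightness also depends on the probe, so the order of genes by intensity is not an order of transcript numbers, and an absent signal may be the probe's. Replicate 2 stood apart, with a Pearson's r across genes of at most 0.9819 with any other array, against at least 0.9903 among the other arrays. Means and SDs below include it, and the values without it are given with the spread.

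The brightest probes belonged to protein synthesis, chromatin and energy genes that every dividing cell uses. Of the 25 brightest, 10 encode cytosolic ribosomal proteins (Rplp1, Rps2, Rpl41, Rps9, Rpl23, Rps29, Rps12, Rpl38, Rpl9 and Rps19) and 1 the elongation factor Eef1a1. Rplp1, of the ribosomal stalk, came first at 15.40 ± 0.06 (SD, n = 4). Another 5 were histone H2A genes (H2ac24, H2ac20, H2ac10, H2ac13 and H2ac7), whose near-identical sequences a probe may not separate, as may also hold for ribosomal protein genes and their pseudogenes. ATP synthase gave Atp5b at 15.36 ± 0.03 and Atp5g3, and mitochondrial DNA gave CYTB, a subunit of respiratory complex III. The rest were the cytoskeletal genes Tubb5 and Actb, the ferritin heavy chain gene Fth1, the metallothionein gene Mt1, the cyclophilin gene Ppia and Ybx1, which binds RNA. Among the 100 brightest, ribosomal proteins numbered 30, histones 7 and the nuclear genes of the respiratory chain and ATP synthase 7.

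Genes of a differentiated lineage appeared just after these. Defa20, an alpha-defensin made by Paneth cells, was in place 26 with 15.43, 14.90, 14.53 and 14.40 on replicates 1, 2, 3 and 4. Lyz1, the Paneth cell lysozyme, was in place 71 with 14.63, 13.81, 13.72 and 13.65. Both were highest on replicate 1, whereas Mt1 and Fth1, which bind metals, were highest on replicate 2, at 15.37 and 15.35.

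Genes of the labelled tissue, gut epithelium, were bright. The keratin genes Krt8 and Krt18 averaged 13.75 ± 0.11 and 12.37 ± 0.26 (SD, n = 4 each), and the adhesion gene Cdh1 averaged 10.09 ± 0.20. Cdx2, the transcription factor of intestinal identity, averaged 11.69 ± 0.11 and its relative Cdx1 9.47 ± 0.19. Vil1, of the microvillus core, averaged 10.76 ± 0.39. Epcam, which intestinal epithelium expresses strongly, read 6.75, 6.89, 6.91 and 6.87, at the background limit, as an example of a brightest probe that carries little signal. Fabp1 and Fabp2, fatty acid binding proteins of enterocytes, were above the limit on no array (means 6.71 and 6.68), and Pcna averaged 7.27, so these probes say little about their genes.

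Stem cell genes of the crypt base were above the limit on all arrays in 16 of 19 measured members, against 53.8% of all genes. Their median range between arrays, the highest minus the lowest log2 value, was 0.44, against 0.23 over all genes above the limit on at least 1 array and 0.42 over those with a mean from 8 to 10. Lgr5, the R-spondin receptor, read 10.08, 9.53, 9.70 and 9.90 on replicates 1 to 4. Ascl2, which encodes a stem cell transcription factor, read 10.05, 9.61, 9.70 and 9.72. Both were lowest on replicate 2 and highest on replicate 1, with ranges of 0.55 and 0.44. Cdca7 averaged 13.25 ± 0.19, the transcription factor gene Sox9 13.22 ± 0.18, the growth factor gene Pdgfa 11.46 ± 0.26 and the receptor regulator Lrig1 11.00 ± 0.20. Nav1 and Tnfrsf19 averaged 10.41 and 10.33. The water channel gene Aqp4 and the matrix protein gene Smoc2 had ranges of 0.93 and 0.84 between arrays. Olfm4, a secreted glycoprotein of stem cells, was the 1 member with a range of at least 1, at 9.88, 9.04, 9.89 and 10.10.

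Of the Wnt target genes, 17 of 23 were above the limit on all arrays, against 53.8% of all genes. Ifitm1, an interferon-induced membrane protein gene, averaged 13.97 ± 0.09, the cyclin gene Ccnd1 13.29 ± 0.35 and Axin2, a scaffold that feeds back on the pathway, 12.73 ± 0.18. The transcription factor gene Sp5 averaged 11.42 ± 0.08, and Prox1, another transcription factor gene, 11.23 ± 0.14. Notum, an enzyme that inactivates Wnt ligands, was less even, at 11.75, 12.39, 12.04 and 11.23. Cd44, the hyaluronan receptor, read 10.90, 10.45, 11.32 and 11.67, so its lowest array was the one on which Notum was highest. Apcdd1, a Wnt inhibitor, ranged over 0.92. Myc averaged 7.72 ± 0.27. Apc itself averaged 7.35 ± 0.12, with all 4 values within 0.26. Where its probe lies relative to the floxed exon was not known, so it does not check the deletion. Among 20 pathway components measured, the beta-catenin gene Ctnnb1 averaged 11.60 ± 0.23, Pygo2 10.63, Axin1 10.23, Dvl1 10.02, Gsk3b 9.94 and the receptor Fzd5 9.59.

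Proliferation genes were above the limit on all arrays in 23 of 26 measured members, against 53.8% of all genes. The replication helicase genes Mcm5 and Mcm4 averaged 12.55 ± 0.32 and 12.47 ± 0.26. The mitosis genes Cdc20, Plk1 and Birc5 averaged 12.05, 11.78 and 11.45, and the licensing factor Cdt1 11.02. Bub1b, a spindle checkpoint kinase, had the list's widest range, at 10.15, 9.75, 10.61 and 10.86. Counting each gene's lowest array, replicate 2 was lowest in 18 of the 23 members above the limit and replicate 4 highest in 15. The same counts were not made over all genes, so they describe this list only. Replicate 2 was farthest from the median of the other arrays in 10 of the 23. Over all genes above the limit on at least 1 array this share was 36.12%.

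Paneth cell genes were above the limit on all arrays in 15 of 17 measured members, against 53.8% of all genes. Besides Defa20 and Lyz1, Defa3 averaged 14.33 ± 0.30 and Xbp1, which serves secretion, 11.86 ± 0.31. Defa26 read 13.20, 11.24, 11.53 and 10.83, Ang4, an antimicrobial ribonuclease, 12.26, 11.20, 11.10 and 10.65, and Clps, a colipase, 11.37, 10.44, 9.97 and 9.73. All 3 stood highest on replicate 1 and lowest on replicate 4. Mmp7, the protease that processes Paneth defensins in the mouse, averaged 6.83, at the limit, and Lyz2 was above it on no array.

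Goblet cell genes were above the limit on all arrays in 11 of 17 measured members, a share not far from the 53.8% of all genes, so the count says little about the lineage. Zg16, a lectin of mucus, read 12.51, 14.77, 13.65 and 13.45. Muc2, the gel-forming mucin, read 9.45, 11.52, 10.12 and 10.35, and Clca1, a mucus protease, 8.25, 10.36, 9.24 and 9.21. In each of the 3, replicate 2 was highest, replicate 1 lowest, and replicates 3 and 4 lay between them within 0.23. Guca2a, the guanylin gene, averaged 11.58 ± 0.86, the trefoil factor gene Tff3 10.79 ± 0.42 and Spink4 10.44 ± 0.45. Atoh1, which specifies secretory cells, was above the limit on no array (mean 6.70).

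All 28 measured enteroendocrine genes passed the limit on at least 1 array, and 24 on all 4, against 53.8% of all genes on all 4. Sct, for secretin, averaged 12.63 ± 0.27, Ghrl, for ghrelin, 11.39 ± 0.72, and the granule protein gene Chgb 11.24 ± 0.34. Neurog3, the transcription factor that starts this lineage in progenitors, averaged 10.89 ± 0.35. Gip, for the incretin of K cells, averaged 9.66 ± 0.29 and Chga, for chromogranin A, 8.71 ± 0.28. Cck, Sst and Gcg, which encode cholecystokinin, somatostatin and the glucagon-like peptides, differed more between arrays and are taken up below.

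Enterocyte genes gave some of the widest values of the data. Reg1, a secreted lectin, averaged 13.31 ± 1.24, Prap1 13.29 ± 1.10 and Apoa1, the main apolipoprotein of high-density lipoprotein, 13.07 ± 1.24 (SD, n = 4 each). Several tuft cell genes read near the background limit. Dclk1 averaged 7.03 ± 0.16 and the channel gene Trpm5 6.90 ± 0.07. Avil, an actin-binding protein gene, was brighter, at 7.84 ± 0.22. Of the 18 measured, 9 were above the limit on all arrays, again near 53.8%, and Plac8, which is not restricted to tuft cells, was the 1 with a mean over 8, at 11.70.

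Regional genes were above the limit on all arrays in 10 of 12 proximal and 6 of 11 ileal members, against 53.8% of all genes. The ileal count is near that share and says little about the region, and both lists are short. The proximal genes Slc40a1, the iron exporter, and Onecut2 averaged 10.62 ± 0.50 and 10.31 ± 0.19, and the duodenal transcription factor gene Pdx1 averaged 7.86 ± 0.19. Of the ileal genes, Slc51a, of the basolateral bile acid exporter, averaged 8.52 ± 1.03, Fgf15 7.06 ± 0.14 and Fabp6 6.94 ± 0.11. Slc51a and its partner Slc51b, at 7.60 ± 0.85, were both highest on replicate 2, at 10.01 and 8.88, against at most 8.23 and 7.19 on the other arrays. Colon and stomach genes had no mean above 7.10, that of Hoxa13. Genes of fetal-like or regenerating epithelium were above the limit in 11 of 13 members, with Anxa3 at 13.33 ± 0.52, Krt19 at 12.77 ± 0.38, Krt7 at 12.11 ± 0.35, Tnfrsf12a at 11.59 ± 0.36 and S100a6 at 11.58 ± 0.16.

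**Figure D1:**
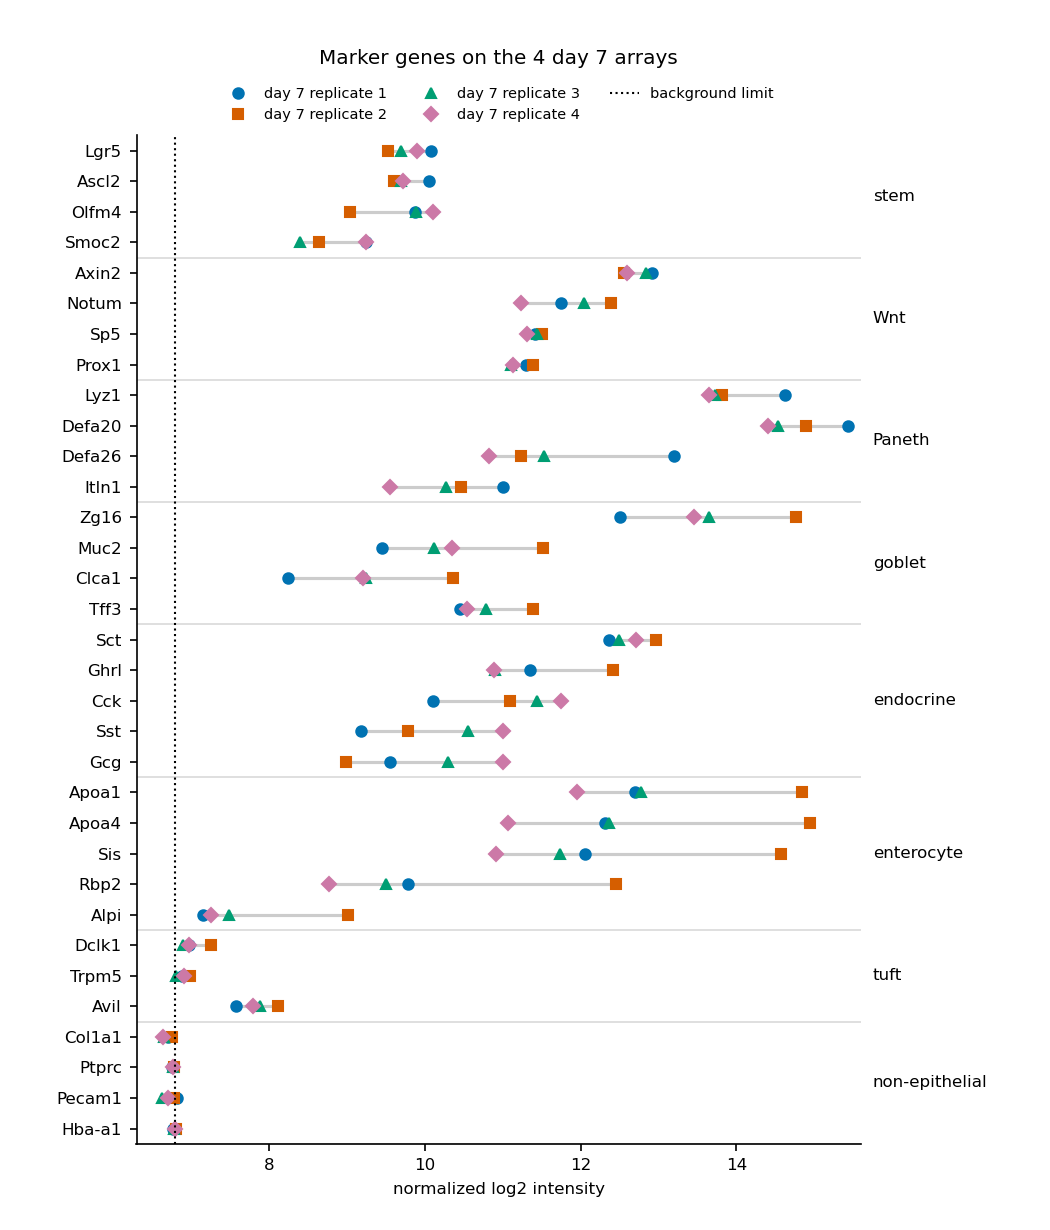
Normalized log2 intensity (horizontal axis) of marker genes on each of the 4 day 7 arrays, grouped by lineage at the right, with the background limit of 6.796 as a dotted line. Enterocyte genes such as Apoa4 are spread from 11.07 to 14.94 with replicate 2 highest, and Col1a1, Ptprc, Pecam1 and Hba-a1 lie at background.

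Defining markers of several cell types outside the epithelium were at or near background. Col1a1, the fibrillar collagen of fibroblasts, averaged 6.69 and Ptprc, the pan-leukocyte antigen, 6.77, both above the limit on no array. Pecam1 of endothelium and the globin gene Hba-a1 exceeded the limit on 1 array each. The endothelial genes Cdh5, Kdr, Tek and Vwf were just above it on all arrays, with means from 6.85 to 6.955. On all arrays the limit was exceeded by 4 of 20 stromal, 4 of 10 smooth muscle, 5 of 10 endothelial, 3 of 17 leukocyte, 2 of 7 neural and 1 of 7 erythroid genes, of which the smooth muscle and endothelial counts are near the 53.8% of all genes. Vim, at 11.80 ± 0.33, was the bright member among stromal genes, Esam, at 8.55 ± 0.39, among endothelial and Cd14, at 8.68 ± 0.19, among leukocyte genes. Of the smooth muscle list, Smtn averaged 8.61 ± 0.21, and Acta2, smooth muscle actin, read 9.98, 8.99, 8.89 and 7.94. Tagln was above the limit on no array and Cnn1, with a mean of 6.76, on 1 array. Des and Myocd averaged 6.85 and 6.86, just above the limit on all arrays. The female-specific transcript Xist read 10.01, 9.39, 9.92 and 9.87, the Y-linked genes Eif2s3y and Kdm5d at most 6.83 and 6.80, and Uty, also Y-linked, 6.87, 7.09, 6.91 and 6.98, just above the limit on all 4 arrays.

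The spread between arrays was small for most genes. The range, the highest minus the lowest log2 value of a gene over the 4 arrays, was taken over the 15151 genes above the limit on at least 1 array. Its median was 0.23, its 95th percentile 0.81 and its largest value 5.65. The median SD was 0.10. By level, the median range was 0.15 for means under 7, where background compresses differences, 0.42 from 8 to 10, 0.33 from 12 to 14 and 0.25 from 14. A range of at least 1, which is 2-fold, was found in 467 genes (3.08%), and a range of at least 2, which is 4-fold, in 103 genes (0.68%). Among the 64 genes with a mean of at least 14, Defa20 was the 1 with a range of at least 1.

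Most wide genes differed on 1 array. For each gene the farthest array is the one farthest from the median of the other arrays. Replicate 2 was farthest in 354 of the 467 wide genes (75.8%), being high in 310 and low in 44. Replicate 1 was farthest in 57, replicate 4 in 39 and replicate 3 in 17. Over all 15151 genes replicate 2 was farthest in 36.12%, replicate 1 in 23.61%, replicate 3 in 21.19% and replicate 4 in 19.07%. Of the 103 genes with a range of at least 2, replicate 2 was farthest in 97, high in 94 of them, and replicate 4 was lowest in 80.

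**Figure D2:**
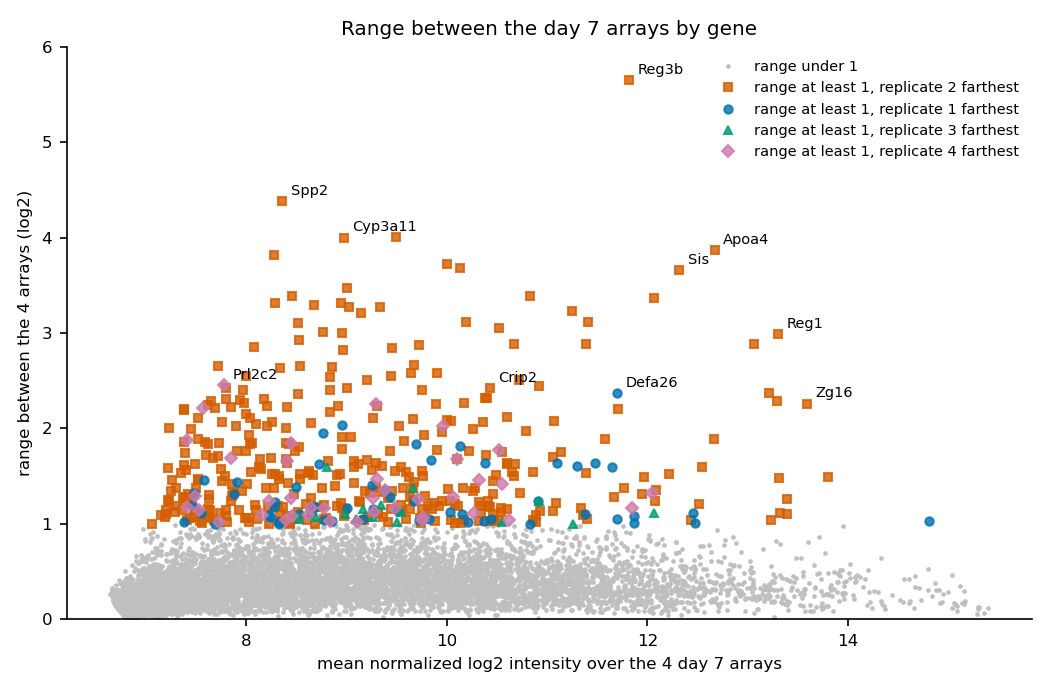
Range between the 4 day 7 arrays (vertical axis, log2) against the mean normalized log2 intensity (horizontal axis) for 15151 genes, each point a gene. Genes with a range of at least 1 are coloured and shaped by the farthest array, and squares for replicate 2 make up 354 of the 467.

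Pearson's r across these 15151 genes, which are not independent, was 0.9948 between replicates 3 and 4, 0.9912 between 1 and 3, 0.9903 between 1 and 4, and 0.9758 to 0.9819 between replicate 2 and each other array. Genes that differed by at least 1 numbered 9 between replicates 3 and 4, and 278 to 331 between replicate 2 and another array. The first principal component held 65.95% of the variance and set replicate 2 apart from the rest, and the second, with 22.35%, set replicate 1 apart. The lists described below show which genes these are.

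Genes of fat absorption and transport were among the widest. Apoa4, an apolipoprotein of chylomicrons, read 12.31, 14.94, 12.37 and 11.07 on replicates 1, 2, 3 and 4, Apoc3 11.13, 13.39, 10.84 and 10.27, and Apoa1 12.70, 14.84, 12.77 and 11.96. All 3 were highest on replicate 2 and lowest on replicate 4. Rbp2, which holds retinol inside enterocytes, read 9.79, 12.45, 9.50 and 8.77. Apob, the structural protein of chylomicrons, and Mttp, which loads it with lipid, had ranges of 2.63 and 2.02 (enterocyte list members named after their values were seen). Of 10 apolipoprotein genes above the limit on at least 1 array, 5 had a range of at least 1, all 5 highest on replicate 2. The share with such a range over all genes was 3.08%.

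Digestive enzymes and transporters of the brush border showed the same array. Sis, which encodes sucrase-isomaltase, read 12.06, 14.57, 11.74 and 10.91. Treh, for trehalase, read 8.39, 10.62, 8.44 and 7.61, and Dpep1, a dipeptidase, 8.48, 10.68, 8.17 and 7.39. Replicates 1 and 3 differed by at most 0.32 in these genes, and replicate 4 was lowest in each. The lactase gene Lct had a range of 2.25, with 9.15 on replicate 2 and 6.90 to 7.30 elsewhere, and the alkaline phosphatase gene Alpi 9.01 against 7.16 to 7.49. Among carriers, the anion exchanger Slc26a6 reached 11.32 on replicate 2 against at most 8.46 on the others, the cation exporter Slc47a1 10.82 against at most 7.90, the sugar carrier family member Slc5a4b 10.44 against at most 8.17 and the mitochondrial carrier Slc25a45 11.31 against at most 8.69. Vil1, in the core of the same microvilli, differed less, at 10.22, 11.11, 10.75 and 10.96.

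Genes of drug, alcohol and sugar metabolism made up another group. The cytochrome P450 genes Cyp2d26, Cyp3a11, Cyp2d10 and Cyp4f14 read 12.00, 11.70, 10.55 and 13.35 on replicate 2, against at most 9.23, 8.31, 7.77 and 11.24 on the other arrays. Cyp3a11, the chief drug-oxidising P450 of mouse gut and liver, read 8.31, 11.70, 8.19 and 7.70. G6pc, the phosphatase that releases glucose, read 7.45, 11.06, 7.36 and 7.24, so 3 arrays lay within 0.21 of each other and replicate 2 stood alone. Adh1, an alcohol dehydrogenase, read 11.69, 14.25, 11.46 and 10.88, and Ugt2b36, a glucuronosyltransferase, 8.27, 10.39, 7.98 and 7.46. Also highest on replicate 2 were Papss2, which makes the sulfate donor, Acaa1b, a peroxisomal thiolase, and Nat8, an acetyltransferase, with ranges of 3.05, 3.00 and 3.32. The Cyp2d genes resemble each other closely, so their probes may share signal.

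Secreted and signalling genes completed the group. Spp2, a secreted phosphoprotein, read 8.02, 11.39, 7.02 and 7.01, near background on replicates 3 and 4. Selenop, the selenium carrier, read 9.62, 12.48, 9.14 and 8.76, and Spink1, a trypsin inhibitor, 10.16, 12.08, 9.55 and 8.96. Each of the 3 was highest on replicate 2 and next on replicate 1. The kinase gene Sgk1 read 8.28, 11.26, 7.99 and 8.58, the actin-severing gene Scin 10.42, 12.83, 10.62 and 9.44, and Smim24 10.78, 13.47, 10.51 and 10.24. Sgk1 was thus not lowest on replicate 4. One gene with a clone-type name was also among the 30 widest and is not described, and Khk, for ketohexokinase, tied with Apoa1 at a range of 2.88.

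**Figure D3:**
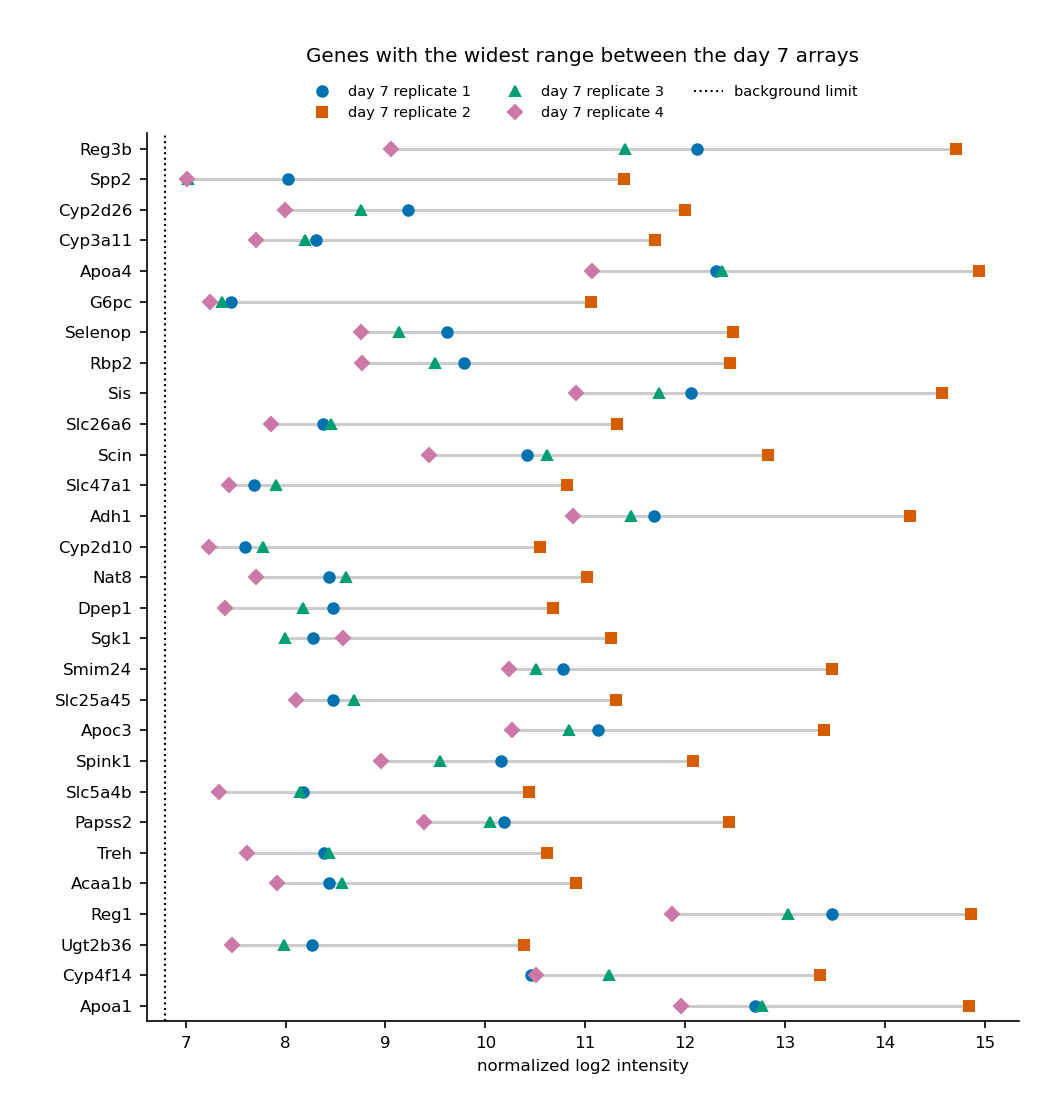
Normalized log2 intensity (horizontal axis) on the 4 day 7 arrays for the 29 described genes of the 30 with the widest range, from Reg3b (range 5.65) at the top to Apoa1 (2.88) at the bottom, with the background limit as a dotted line. Replicate 2 is the highest array in every gene shown.

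The Reg family, secreted C-type lectins that act on gut bacteria or on growth, held the widest gene of all. Reg3b read 12.12, 14.71, 11.40 and 9.06, so replicate 4 lay 2.34 below the next lowest array and replicate 2 2.59 above the next highest. Reg1 read 13.47, 14.86, 13.03 and 11.87, and Reg3a 9.35, 10.46, 9.70 and 8.97. In all 3 the highest array was replicate 2 and the lowest replicate 4. Reg3g, close in sequence to Reg3b, was above the limit on 3 arrays and had a range of 0.50, Reg4 stayed within 0.17, and Reg2 and Reg3d were above the limit on no array.

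The sequences before the starts of 4 of these genes are shown because the genes stand for the groups above and moved together across the arrays: brush border enzyme, drug metabolism, Reg family and retinol transport. They come from RefSeq (GRCm38.p6) and run 5′ to 3′ on the gene's strand, from 250 bases before its start to 30 bases from the start on. Capitals mark matches, on either strand, to TATAAA (the TATA box), TTTAT (the core bound by Cdx factors), GTTAAT (part of the Hnf1 site) and CAAAGTCCA (an Hnf4 site). TATAAA holds ATAAA, the reverse complement of TTTAT, so those matches overlap. Sis lies on the minus strand at chr3:72967834-72968113, Cyp3a11 on the minus strand at chr5:145879825-145880104, Reg3b on the plus strand at chr6:78370635-78370914 and Rbp2 on the plus strand at chr9:98490287-98490566.
Sis: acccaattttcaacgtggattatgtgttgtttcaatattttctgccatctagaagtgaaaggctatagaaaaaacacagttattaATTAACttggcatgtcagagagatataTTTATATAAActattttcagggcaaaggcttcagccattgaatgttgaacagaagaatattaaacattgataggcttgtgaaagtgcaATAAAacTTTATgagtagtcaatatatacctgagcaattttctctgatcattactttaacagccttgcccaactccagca
Cyp3a11: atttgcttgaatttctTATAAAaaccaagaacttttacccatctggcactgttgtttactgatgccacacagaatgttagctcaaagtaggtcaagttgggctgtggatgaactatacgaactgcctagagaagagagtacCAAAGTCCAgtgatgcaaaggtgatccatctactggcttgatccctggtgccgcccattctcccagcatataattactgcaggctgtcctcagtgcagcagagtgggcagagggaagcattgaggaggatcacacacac
Reg3b: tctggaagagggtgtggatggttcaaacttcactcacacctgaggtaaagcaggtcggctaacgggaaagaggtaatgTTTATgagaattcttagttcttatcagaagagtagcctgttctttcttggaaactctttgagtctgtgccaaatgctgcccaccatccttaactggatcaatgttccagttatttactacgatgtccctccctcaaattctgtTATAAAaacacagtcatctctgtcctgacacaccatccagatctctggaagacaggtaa
Rbp2: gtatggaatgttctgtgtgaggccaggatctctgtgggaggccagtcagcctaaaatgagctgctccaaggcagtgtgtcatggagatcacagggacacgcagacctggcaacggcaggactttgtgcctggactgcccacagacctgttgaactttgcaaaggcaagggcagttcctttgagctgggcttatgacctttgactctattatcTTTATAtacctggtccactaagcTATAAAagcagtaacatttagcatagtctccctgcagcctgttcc

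In these windows CAAAGTCCA occurred in Cyp3a11, from 109 bases before the start, and TATAAA from 29 bases before the start in Reg3b. In Rbp2 a reverse match to TATAAA lay at 38 bases and a forward match at 15 bases before the start. Of the 310 genes that were wide and high on replicate 2, 254 matched the promoter table, with 332 promoters of 300 bases. CAAAGTCCA was in 2.71% of them, against 0.46% of the 15224 promoters of genes above the limit and 0.47% of all 32851 promoters. The 9 genes were Cyp3a11, Nat8, Treh, Pdzk1, Trim31, Cyp2c65, Alpi, Osbpl6 and Aspdh. TATAAA was in 18.07%, 10.13% and 13.62% of the same 3 sets, TTTAT in 43.98%, 30.53% and 40.01%, and GTTAAT in 9.94%, 5.33% and 7.10%. Matched letters are not evidence of a bound factor, and the genes were chosen by their values.

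The absorptive enterocyte list, taken as a whole, was the list with the widest score. A list score is the mean, over members above the limit on at least 1 array, of each gene's deviation from its own mean. For 22 enterocyte genes it was -0.366, 1.423, -0.336 and -0.721 on replicates 1, 2, 3 and 4. Of these 22, 17 had a range of at least 1, against 3.08% of all genes and 6.79% of those with a mean from 8 to 10. All 17 were farthest on replicate 2 and high there. The median range over the list was 2.28, against 0.23 over all genes and 0.42 for means from 8 to 10. The members with a range under 1 were Vil1, the peptidase gene Anpep and 3 dim genes, Fabp6, Slc15a1 and Slc2a5. Slc10a2, Fabp1 and Fabp2 were above the limit on no array. The Reg score was 0.089, 1.088, -0.173 and -1.005 over 5 genes, and Reg1 counts in both lists. With replicate 2 left out the enterocyte score had a range of 0.402.

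Other list scores were also highest on replicate 2. The proximal small intestine score was -0.118, 0.587, -0.178 and -0.291, and the distal score -0.214, 0.330, 0.010 and -0.126. Not all members shared this: 4 of the 10 proximal and 3 of the 8 distal genes scored were farthest and high on replicate 2. The proximal genes Pdx1, Gata5 and Onecut2 were highest on replicate 1. Ada, also proximal, and the ileal genes Fgf15 and Fabp6 were highest on replicate 4. Cyp3a11 and Lct count in both the proximal and the enterocyte list. The goblet score was -0.177, 0.420, -0.090 and -0.152. A range of at least 1 was found in 6 of its 14 genes, against 3.08% of all genes. The goblet list was mixed in its arrays, since Zg16, Guca2a, Muc2 and Clca1 were farthest and high on replicate 2 and Ang4 and Spink4 on replicate 1. The tuft score was -0.094, 0.176, -0.074 and -0.008, carried in part by Alox5ap, at 7.00, 7.95, 6.96 and 7.25. No tuft gene had a range of 1. Farthest and high on replicate 2 were 11 of 15, against 2589 of all 15151 genes. Several of the 11 lay near the background limit, such as Trpm5 with a range of 0.18, so the count says little about the lineage. The cholesterol synthesis score was 0.109, 0.188, -0.140 and -0.157, with Insig1, a sterol sensor partner, at 8.25, 9.17, 7.79 and 7.89 and Cyp51 at 10.76, 11.01, 9.98 and 10.12. Replicates 1 and 2 were thus the higher pair for sterol genes.

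Lists low on replicate 2 were those of proliferation, stem cells and fetal-like epithelium. The proliferation score was 0.045, -0.248, -0.003 and 0.206 over 23 genes, and the stem cell score 0.076, -0.161, 0.016 and 0.069 over 19. The fetal-like score was 0.096, -0.301, 0.124 and 0.081 over 12, and its member Msln, for mesothelin, read 7.86, 7.52, 9.04 and 8.73. These scores span less than the enterocyte score, whose range was 2.143 against 0.454, 0.237 and 0.425. All lists were chosen with earlier results of these data known, so their counts describe these arrays only.

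**Figure D4:**
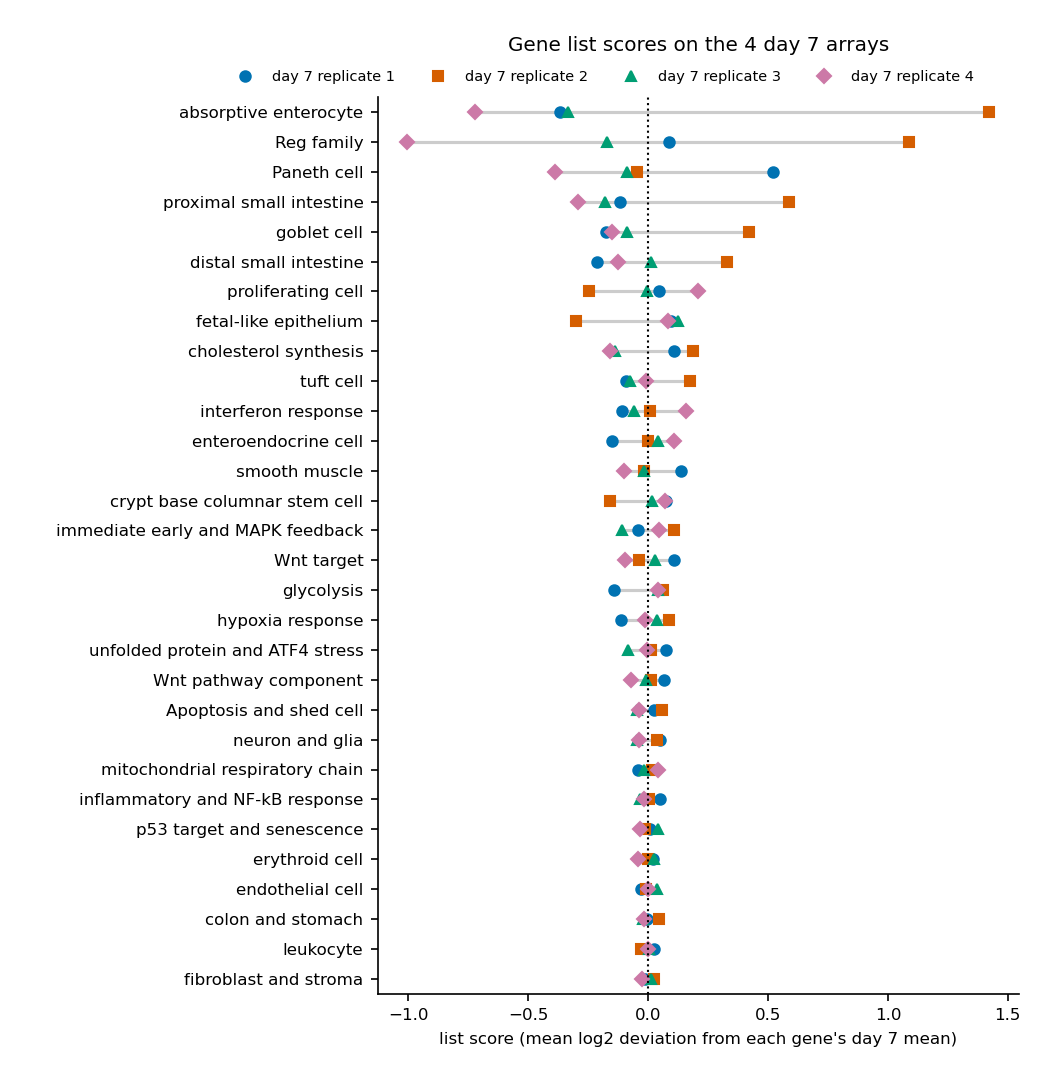
List scores (horizontal axis, mean log2 deviation from each gene's day 7 mean) on the 4 day 7 arrays for 30 gene lists, from the widest to the narrowest. The enterocyte score runs from -0.721 on replicate 4 to 1.423 on replicate 2, the Paneth score is highest on replicate 1 at 0.521, and the scores of fibroblasts, leukocytes and endothelium have ranges of at most 0.067.

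The 44 wide genes that were low on replicate 2 were other genes, named here after their values were seen. Crip2, a LIM domain protein gene, read 10.05, 8.96, 11.38 and 11.33, Wfdc2, a secreted protein gene, 9.86, 8.74, 10.83 and 10.57, and Acta1, a muscle actin gene, 10.98, 9.80, 11.61 and 11.88. In these the order was the same in its lower part, with replicate 2 lowest and replicate 1 next. Gpx2, the glutathione peroxidase of gut epithelium, was the brightest at 13.67, 13.03, 13.99 and 14.52. Anxa3, of the annexins, read 13.49, 12.56, 13.67 and 13.58, and Il1rn, the interleukin 1 receptor antagonist gene, 8.45, 7.86, 9.00 and 9.37. With Olfm4, Cd44 and Bub1b, already given, the group held genes of the stem cell, Wnt and proliferation lists.

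Replicate 1 stood out by Paneth cell and hormone genes. The Paneth score was 0.521, -0.046, -0.087 and -0.388. Of its 16 members, 7 had a range of at least 1, against 3.08% of all genes. Of 7 alpha-defensin genes above the limit on at least 1 array, 5 had such a range, all farthest on replicate 1 and high there. Besides Defa26 and Defa20, these were Defa39, at 9.93, 8.35, 8.34 and 8.30, Defa21 at 8.89, 7.58, 7.72 and 7.45, and Defa23 at 8.93, 7.75, 8.42 and 7.99. Defensin genes are near copies of each other, so the 5 probes may read shared transcripts and do not count as 5 separate signals. The pancreatic-type ribonuclease gene Rnase1 read 9.88, 8.82, 8.44 and 7.93, and Itln1, the lectin intelectin, 11.01, 10.46, 10.27 and 9.55. Defa39, Defa21, Defa23, Rnase1 and Itln1 were named after their values were seen. Acta2, given above, was highest on replicate 1 and lowest on replicate 4, like Defa26, Ang4, Clps, Rnase1 and Itln1, whereas Defa23 was lowest on replicate 2.

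Several hormone genes ran the other way. Sst read 9.18, 9.79, 10.56 and 11.00, Cck 10.11, 11.09, 11.44 and 11.75, and Pyy, for peptide YY, 6.78, 7.28, 7.64 and 7.80. Each was lowest on replicate 1 and highest on replicate 4. Gcg read 9.56, 8.99, 10.30 and 11.01, again highest on replicate 4 but lowest on replicate 2. Ghrl did not follow, with 11.35, 12.42, 10.90 and 10.89, nor did Sct, with 12.36, 12.97, 12.49 and 12.71. Neurog3 was at 11.10, 10.50, 11.25 and 10.71. The hormone genes of different enteroendocrine cells therefore differed in which array was highest, and the list score stayed between -0.151 and 0.109.

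Replicate 4 was farthest in 39 wide genes, high in 23, which are named here after their values were seen except for list members. The proliferin genes Prl2c2, Prl2c3 and Prl2c4, of the prolactin family, read 9.26, 9.04 and 8.67 on replicate 4 and 7.89, 7.48 and 7.28 on replicate 3, against at most 7.15 on replicates 1 and 2. These 3 are close copies, and their probes may not separate them. Ctse, for cathepsin E, read 8.22, 8.24, 10.25 and 10.48, and the NADPH oxidase organiser gene Noxo1 9.45, 9.31, 10.65 and 10.99. By these probes both genes were higher on replicates 3 and 4 than on replicates 1 and 2. A second Noxo1 probe had this split too, at 7.80, 7.43, 8.59 and 8.66. A second Ctse probe, above the limit on all arrays, did not, at 7.11, 7.82, 7.30 and 7.47.

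Some interferon-induced genes were also highest on replicate 4. Ifi27 read 9.87, 9.82, 10.79 and 11.59, Irf9 7.62, 8.11, 8.17 and 8.71, and Bst2 7.50, 7.38, 7.65 and 8.40. Oas1g, outside the list, read 7.69, 8.09, 8.48 and 9.35. The class I genes on the same list did not share this order: B2m was at 12.40, 13.05, 12.01 and 12.27, and H2-D1 at 12.27, 12.75, 11.26 and 11.60, both highest on replicate 2. Over 26 scored members the interferon score was -0.107, 0.006, -0.058 and 0.159. Of these 26, 5 had a range of at least 1, against 3.08% of all genes. The immediate early gene Egr1 was also highest on replicate 4, at 9.86, 10.39, 10.67 and 11.28.

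**Figure D5:**
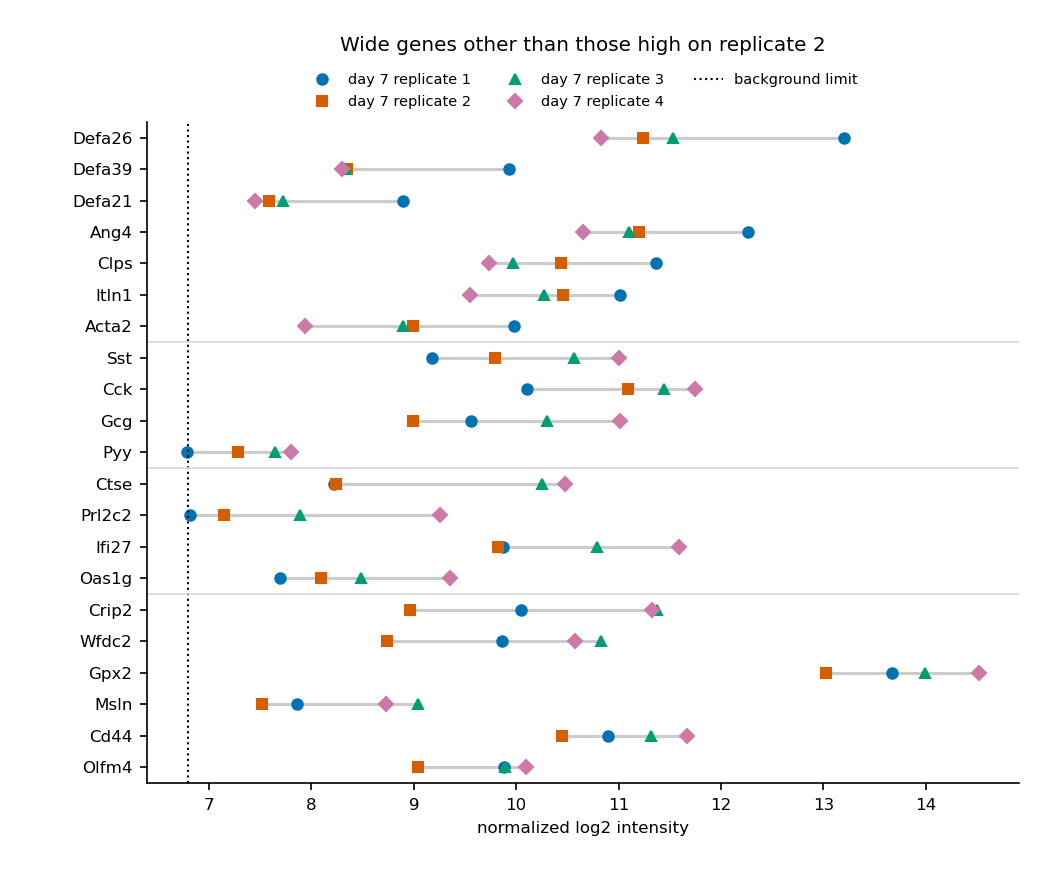
Normalized log2 intensity (horizontal axis) on the 4 day 7 arrays for wide genes that were not high on replicate 2, with the background limit as a dotted line. From top to bottom the groups are genes high on replicate 1 or low on replicate 4 (such as Defa26), hormone genes (such as Sst, from 9.18 on replicate 1 to 11.00 on replicate 4), genes high on replicate 4, and genes low on replicate 2 (such as Crip2).

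With replicate 2 left out, 106 of 14438 genes (0.734%) had a range of at least 1 among replicates 1, 3 and 4. Replicate 1 was farthest in 78 of them, high in 36 and low in 42, replicate 4 in 23 and replicate 3 in 5. The widest described genes were then Reg3b with 3.06, Prl2c2 with 2.45, Defa26 with 2.37 and Ctse with 2.26. Apoa4, Sis and Rbp2 were still among the 106. Their order without replicate 2 was also shared in part, since replicate 4 was lowest in all 3.

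Wide ranges were also counted by gene family, grouped by symbol after the data were seen. The share over all genes was 3.08%, which includes the genes with a mean under 7, where none was wide. It was 6.79% for means from 8 to 10 and 6.03% from 10 to 12. Families were not matched by level, so part of a higher share may come from brightness. Of 59 cytochrome P450 genes above the limit on at least 1 array, 18 had a range of at least 1 (30.5%), 17 of them highest on replicate 2. The exception was Cyp2e1, at 10.49, 9.25, 9.40 and 9.56. Glutathione transferase genes had 6 of 22, all high on replicate 2, with Gsta1 at 12.13, 13.60, 12.44 and 12.00. Alcohol and aldehyde dehydrogenases had 5 of 24 and solute carriers 28 of 298 (9.40%). Genes with symbols of cytosolic ribosomal proteins (Rpl, Rps) had 0 of 68. Those with symbols of the proteasome (Psm) had 1 of 45, namely Psmb5, which is near the share over all genes. Such symbols may take in related genes that encode no subunit. Core and linker histones had 9 of 66, with H2ac18 and H2ac19 highest on replicate 2 at 11.53 and 11.33, while H1f2 read 10.80, 11.57, 11.81 and 12.40.

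Lists of general cell functions had few wide genes, as most genes did: at the 3.08% of all genes, lists of this size are too small for such counts to set them apart. Their median ranges were 0.32 for the respiratory chain, 0.42 for glycolysis, 0.31 for p53 targets, 0.38 for hypoxia, 0.225 for inflammation and 0.64 for the unfolded protein and Atf4 responses. Over all genes the median range was 0.23, which includes dim genes, at 0.15 for means under 7. It was 0.42 for means from 8 to 10, 0.39 from 10 to 12 and 0.33 from 12 to 14. The respiratory chain and glycolysis lists had median means of 12.20 and 10.51, so their ranges were near those at the same level. Respiratory chain genes had 0 of 31 with a range of at least 1, with Cox5b at 14.06 ± 0.10, Cox6b1 at 13.89 ± 0.16 and Cox4i1 at 13.73 ± 0.14. Glycolysis genes had 0 of 15, with Tpi1 at 13.90 ± 0.17 and Gapdh at 13.38 ± 0.20, although Ldha, for lactate dehydrogenase, read 13.45, 14.31, 13.48 and 13.59. The p53 target list had 1 of 18, the stress gene Gadd45b, and the p53 targets Cdkn1a and Mdm2 averaged 11.52 ± 0.13 and 11.30 ± 0.14. Hypoxia genes had 1 of 16, Ndrg1, at 10.17, 11.27, 10.08 and 10.13, with Car9 at 8.60 ± 0.25. A second Ndrg1 probe, above the limit on all arrays, did not set replicate 2 apart, at 9.22, 9.77, 9.86 and 9.32. Inflammatory genes had 0 of 20, with Cxcl16 at 10.68 ± 0.19 and Tnf at 7.80 ± 0.14. Stress genes of the unfolded protein and Atf4 responses had 2 of 22, Ddit3, at 8.88, 9.45, 8.26 and 7.90, and the cystine carrier gene Slc7a11.

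The steadiest genes with a mean of at least 10 were spread over functions. Ccs, the copper chaperone of superoxide dismutase, read 10.91, 10.90, 10.91 and 10.91. Pkm, for pyruvate kinase, read 13.25, 13.26, 13.27 and 13.27. Hacd3, Mfsd1, Nfatc3, Smox and Thoc7 each had a range of 0.04, Rpl41 0.05, and the alanyl-tRNA synthetase gene Aars and Atp5b 0.06. These ranges are only a few steps of the 0.01 to which values were rounded.

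Second probes of the wide genes read the same RNA with another sequence. Of the 467 wide genes, 232 have 1 or more further probes, and 227 of these probes, for 162 genes, were above the limit on all arrays. The farthest array and its direction were the same in 168 of the 227, and the highest array in 187. The second probes had a median range of 0.82, against 1.28 for the chosen probes of those genes, and 94 of them had a range of at least 1. The chosen probe is the brightest of its gene, and dimmer probes lie nearer to the background that compresses differences.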

How the data were processed

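Each sample was read on 1 Illumina mouse beadchip, from biotinylated cRNA made with a MessageAmp kit, per the labels' protocols. The authors deposited log2 intensities, for which the sources used here give no normalization method. The arrays share nearly the same distribution, so a difference in total RNA output between them cannot be seen. The 16 per-sample columns of a deposited non-normalized table match no label and were left out.

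Of 45281 probes, 34885 have 1 gene symbol, 18 several and 10378 none listed, by the platform annotation. The background mode was 6.7 and the limit of 6.796 its upper tail at a probability of 0.05. No groups were compared, as there is 1 group of 4 arrays, whose number limits the precision, and single arrays were set against the rest by Dixon's critical value. The code for range and farthest array was run on simulated data with known shifts on single arrays and the same noise for every gene. This checks the code and says nothing about these samples. Tools were Python 3.11.15, matplotlib 3.10.9, and limma 3.58.1 in R 4.3.3 for cyclic loess.

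Genes named were the 25 brightest, the 30 widest and the 10 steadiest with a mean of at least 10. Up to 6 brightest and 3 widest members of each list and a marker panel were also named. Other names were chosen after seeing values, whether or not this is said where they appear. The members and lists were chosen with earlier results of these data known.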

Additional observations from a re-analysis of the deposited data

Results flagged for a closer look

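In a group of 4 arrays, 1 array was taken to stand apart where its gap to the nearest other array as a share of the group's whole range was above Dixon's 95% critical value. Chance alone gives about 1 in 20 such groups. Among the 15151 genes above the background limit on at least 1 array, 6.21% passed this value. Of the 252 named genes and list scores, 27 (10.71%) did. Many of these genes were named for wide ranges on these same arrays, so a flag gives them no separate support.

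Replicate 2 stood high by this measure in the goblet cell score (0.854) and in genes of enterocyte metabolism and transport. These were G6pc (0.945), Slc51b (0.983), Apob (0.867), Mttp (0.866), Prap1 (0.865), Slc47a1 (0.861), Cyp3a11 (0.847), Khk (0.847), Cyp2d10 (0.837), Smim24 (0.833) and Osbpl6 (0.83). It also stood high in Ndrg1 (0.924), the histone gene H2ac18 (0.918), Mt1 (0.848) and the glycolysis genes Ldha (0.837) and Gapdh (0.833). The second Ndrg1 probe was highest on replicate 3 instead. Reg3b and Sis, although among the widest genes, did not pass. Replicate 2 stood low in the fetal-like epithelium score (0.899) and its member Anxa3 (0.838), in Cdca7 (0.85), and in Ccs (1), where the whole range was 0.01.

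Replicate 1 stood high in the Paneth genes Defa39 (0.969) and Lyz1 (0.837). It stood low in the glycolysis score (0.893), in Rplp1 (1), which was at the common maximum of 15.43 on the other arrays, and in Atp5b (0.833), with a range of 0.06. Replicate 4 stood low in Thoc7 (1), with a range of 0.04. Values are rounded to 2 decimals.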

How the results depend on the processing

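No paired analysis was possible because 1 day was described and the days were not compared. Of 95 values compared under 9 alternative settings, 85 stayed within the spread between arrays or within 1.5 times the count. The share of wide genes farthest on replicate 2 was judged instead by a 95% interval of 71.7% to 79.5%, which treats genes as independent. A strict background limit and no filter on dim probes left 467 and 103 wide genes by construction, since genes that dim cannot be wide. The tally of 85 includes such values. Subtracting the background mode, with an offset of 16, widens dim genes by construction: 1652 genes then had a range of at least 1 and 224 of at least 2, replicate 2 was farthest in 57.9% of the 1652, and the enteroendocrine and tuft scores had ranges of 0.379 and 0.700, against 0.260 and 0.269. With medians in place of means the goblet and enteroendocrine scores had ranges of 0.314 and 0.129. Spearman's correlation between arrays ran from 0.932 to 0.956, and the lowest Pearson r over genes above the limit on all arrays was 0.967. Averaging probes gave 351 and 81 genes with the wider ranges.

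Leaving out 1 array at a time gave 106 to 424 genes with a range of at least 1 and 7 to 102 with at least 2, the lowest counts without replicate 2, and 10533 to 10636 genes above the limit on all remaining arrays. The lowest pairwise r was 0.9752 to 0.99 and the highest 0.9901 to 0.9947. Score ranges were 0.402 to 2.14 for enterocyte, 0.342 to 0.909 for Paneth, 0.0977 to 0.624 for goblet, 0.109 to 0.260 for enteroendocrine, 0.0992 to 0.289 for tuft, 0.209 to 0.454 for proliferation and 0.060 to 0.237 for stem cell genes. The lowest values came without replicate 2, and without replicate 1 for the Paneth and enteroendocrine scores. Of 232 named genes, the range moved by more than the gene's SD in 92 without replicate 2, in 45 with the mode subtracted, in 38 of 224 with probes averaged and in 16 under cyclic loess. Signal near background limits the size of any range of dim genes.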
